A study of Mus musculus with 9 samples.

Results

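Genes of the parathyroid hormone receptor and the proteins that act on it directly were followed in primary mouse osteoblasts. The list named 9 genes, and each was read from the transcript cluster (the group of array probes for a transcript region) annotated with that gene symbol alone, taking the brightest on average over the 9 arrays. By this rule 8 of the 9 were measured, out of 22180 genes with such a cluster. They were the receptor Pth1r, the G protein alpha subunits Gnas, Gnaq and Gna11, the arrestins Arrb1 and Arrb2, and the receptor kinases Grk5 and Grk6. Each had 1 such cluster, so no choice between clusters arose. Pthlh, which encodes the receptor's local ligand PTHrP, was not analysed here.

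The cells were passage 2 osteoblasts, grown from skull caps of C57BL/6J mice that were 7 to 10 days old (C57BL/6 in the sample labels). Differentiation medium was given from day 3, serum was withdrawn for 24 h from day 10, and treatment lasted 4 h in medium without serum. A first group of 3 samples received 100 nM human parathyroid hormone (1-34), hPTH(1-34), a second group of 3 received bPTH(7-34), the bovine (7-34) amide carrying D-Trp12 and Tyr34, at 1 µM, and the remaining 3 received vehicle. Cells were prepared separately for each replicate, but the labels do not say whether a preparation was shared among the treatments, nor how many mice went into it.

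Pth1r is a class B G protein-coupled receptor. Once bound by an agonist it couples to Gs, which raises cAMP, and to Gq and G11, which activate phospholipase C. Receptor kinases of the GRK family then phosphorylate its tail, beta-arrestins bind there, and the receptor is uncoupled and taken into endosomes. hPTH(1-34) is a full agonist. bPTH(7-34) lacks the first residues that switch on Gs, blocks the cAMP response, and has been described as a ligand that engages beta-arrestin. Because the doses of the peptides were unequal, a difference between the peptide groups is one of peptide and dose together.

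The arrays had medians between 1.67 and 1.76 on the log2 scale over 41345 clusters and correlations from 0.972 to 0.985 between arrays. Of 8 measured osteoblast markers, 6 lay above a background limit in all 9 arrays, among them the collagen genes Col1a1 and Col1a2 (means 12.28 and 11.67), while Sp7 did so in 3 arrays and Bglap in 0. For that limit, 1.68 on the log2 scale, 1088 olfactory receptor genes were averaged over vehicle arrays and the 95th percentile was taken. Markers of other cells passed this limit too, which is close to the array medians. All 8 macrophage and osteoclast markers lay above it on average in each group, although Ptprc did so in only 6 of 9 arrays. Their summed level (log2 of the summed linear values) ran from 8.41 to 8.81 with hPTH(1-34), from 8.47 to 8.83 with bPTH(7-34) and from 8.61 to 8.80 with vehicle. Ctsk was the brightest of these markers (7.76 to 8.10 over the 9 arrays) and weighed most in this sum. Single markers could vary more, as Adgre1 ran from 3.78 to 6.37 and Cd68 from 3.52 to 5.79, while Acp5 ran from 4.72 to 5.15. The summed adipocyte markers (4 of 5 above the limit in each group) ran from 7.98 to 8.91 with hPTH(1-34), from 7.74 to 8.41 with bPTH(7-34) and from 7.50 to 8.05 with vehicle. Chondrocyte markers spread widely within each group, from 8.19 to 9.07, from 8.12 to 9.27 and from 8.24 to 9.02 in the same order. This spread followed the array number, with array 1 lowest and array 3 highest in every group. Of 5 endothelial markers 3 lay above the limit on average in each group, with Tek above it in 9 arrays, Pecam1 and Cdh5 in 8, Kdr in 1 and Emcn in 0, and their summed level ran from 4.24 to 4.41, from 4.20 to 4.80 and from 4.22 to 4.65. In such bulk samples, fewer cells of a type and less RNA per cell cannot be told apart.

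None of the 8 genes passed the test in any comparison. The test was limma over all 9 arrays and all 23521 clusters with a single symbol, with Benjamini-Hochberg adjustment and a threshold of 0.05 on the adjusted p. Between hPTH(1-34) and vehicle it called 0 of 8, where 0.451% of all clusters were called, and 1 of 8 (Gnaq) had an unadjusted p under 0.05, where 9.31% of all clusters did. Between bPTH(7-34) and vehicle it called 0 of 8 and 0% of all clusters, and 0 of 8 had an unadjusted p under 0.05, against 3.32% of all clusters. Between hPTH(1-34) and bPTH(7-34) it called 0 of 8 and 0.463% of all clusters, and 1 of 8 (Pth1r) had an unadjusted p under 0.05, against 9.52% of all clusters. A moderated F-test for any difference among the groups also called 0 of 8, against 0.383% of all clusters, and Pth1r alone had an unadjusted p under 0.05, as 8.18% of all clusters did. All 8 lay above the background limit in all 9 arrays. How closely each cluster follows its transcript was not tested.

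**Figure D1:**
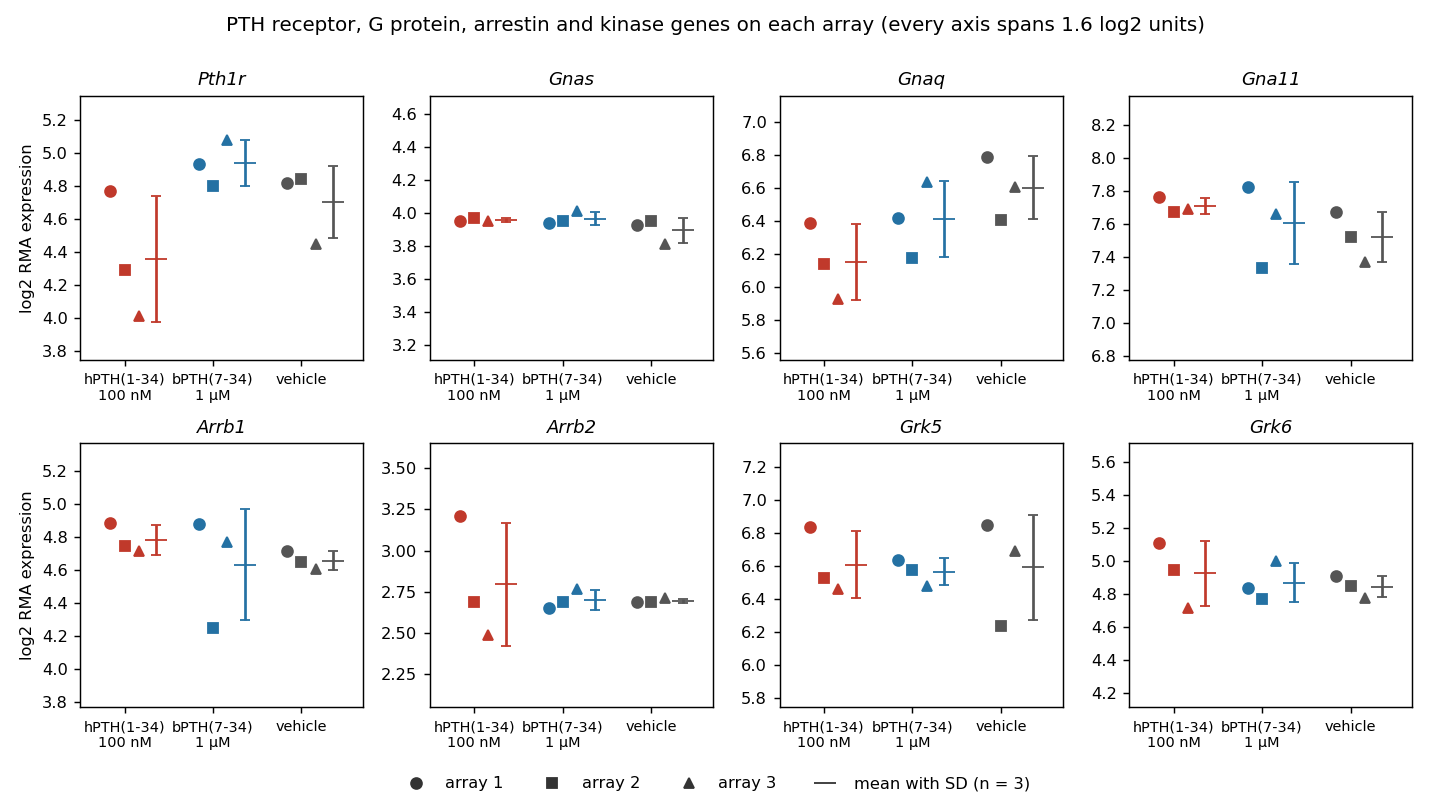
Log2 RMA expression (y axis, each panel spanning 1.6 log2 units) of the 8 genes on each array, by group on the x axis. Points are arrays, with the shape giving the array number, and the bars beside them are the mean and SD of 3 arrays. The Pth1r points of hPTH(1-34) lie from 4.01 to 4.77, under all bPTH(7-34) points (4.80 to 5.08), and the Gnas points stay between 3.81 and 4.01 on all 9 arrays.

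Pth1r, the receptor that both peptides bind, had log2 levels of 4.77, 4.29 and 4.01 with hPTH(1-34), of 4.93, 4.80 and 5.08 with bPTH(7-34), and of 4.82, 4.84 and 4.45 with vehicle. With hPTH(1-34) 2 of the 3 arrays were lower than every other array, and the remaining one lay inside the vehicle range. All 3 hPTH(1-34) arrays were under all 3 bPTH(7-34) arrays, with a gap of 0.03. The mean was 4.36 ± 0.38 with hPTH(1-34), 4.94 ± 0.14 with bPTH(7-34) and 4.70 ± 0.22 with vehicle (SD, n = 3 each).

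The Pth1r difference between hPTH(1-34) and vehicle was -0.35 ± 0.19 (SE) on the log2 scale, with a 95% interval from -0.78 to 0.08 and adjusted p = 0.638. This interval reaches from a level 1.71-fold lower to one 1.06-fold higher. Between bPTH(7-34) and vehicle the difference was 0.23 ± 0.19 (interval -0.20 to 0.66, adjusted p = 0.999). The interval between hPTH(1-34) and bPTH(7-34) alone left out 0, at -0.58 ± 0.19 (-1.01 to -0.15, unadjusted p = 0.0139), a 1.49-fold lower level with hPTH(1-34), but the adjusted p was 0.346. For Pth1r the order of the group means was hPTH(1-34), vehicle, bPTH(7-34) from low to high, and vehicle overlapped both neighbours.

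The Pth1r values depended on hPTH(1-34) arrays 1 and 3. Without hPTH(1-34) array 3 the difference from vehicle was -0.17 (adjusted p = 0.885), and without hPTH(1-34) array 1 it was -0.55 (adjusted p = 0.198). Against bPTH(7-34) the difference without the same arrays was -0.41 (adjusted p = 0.676) and -0.79 (adjusted p = 0.0706). The summed macrophage and osteoclast markers, in which Ctsk weighed most, were lowest on hPTH(1-34) array 3 (8.41), where Pth1r was lowest. They were next lowest on bPTH(7-34) array 3 (8.47), where Pth1r was highest. Adgre1 alone, on arrays 1, 2 and 3, was 6.37, 4.83 and 3.78 with hPTH(1-34). With bPTH(7-34) it was 5.33, 5.91 and 3.81, and with vehicle 6.29, 4.82 and 5.39. The part of such cells in the Pth1r values was not tested.

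The promoter windows of Pth1r, Gnaq and Gnao1 are printed because these are the receptor, the listed gene furthest from vehicle, and the related G protein gene that passed the test below. Each is the 250 bases before a RefSeq transcription start of GRCm38.p6, 5′ to 3′ on the gene's strand, and capitals mark the core letters TGACG, read on both strands (CGTCA on the other), of the cAMP response element (CRE), which CREB binds.
Pth1r most upstream start, chr9:110747146-110747395, minus strand: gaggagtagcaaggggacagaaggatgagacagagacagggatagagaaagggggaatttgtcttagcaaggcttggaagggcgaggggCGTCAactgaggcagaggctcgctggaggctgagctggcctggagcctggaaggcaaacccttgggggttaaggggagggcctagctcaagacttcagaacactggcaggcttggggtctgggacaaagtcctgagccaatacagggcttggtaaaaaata
Pth1r middle start, chr9:110743687-110743936, minus strand: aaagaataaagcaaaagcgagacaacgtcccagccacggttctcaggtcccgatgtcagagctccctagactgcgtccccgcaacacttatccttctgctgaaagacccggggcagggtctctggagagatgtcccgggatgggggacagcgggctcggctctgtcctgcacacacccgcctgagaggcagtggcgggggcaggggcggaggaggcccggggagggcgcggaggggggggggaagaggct
Pth1r most downstream start, chr9:110742611-110742860, minus strand: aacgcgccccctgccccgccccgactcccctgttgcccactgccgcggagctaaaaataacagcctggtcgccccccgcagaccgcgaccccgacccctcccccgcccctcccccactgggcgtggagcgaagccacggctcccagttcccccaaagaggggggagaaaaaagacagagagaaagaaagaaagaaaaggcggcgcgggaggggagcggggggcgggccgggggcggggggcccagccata
Gnaq, chr19:16132434-16132683, plus strand: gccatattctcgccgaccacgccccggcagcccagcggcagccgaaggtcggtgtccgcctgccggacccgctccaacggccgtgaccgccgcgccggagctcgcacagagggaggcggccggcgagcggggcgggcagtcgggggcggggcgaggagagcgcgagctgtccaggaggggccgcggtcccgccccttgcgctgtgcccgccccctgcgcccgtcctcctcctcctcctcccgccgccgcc
Gnao1, chr8:93810588-93810837, plus strand: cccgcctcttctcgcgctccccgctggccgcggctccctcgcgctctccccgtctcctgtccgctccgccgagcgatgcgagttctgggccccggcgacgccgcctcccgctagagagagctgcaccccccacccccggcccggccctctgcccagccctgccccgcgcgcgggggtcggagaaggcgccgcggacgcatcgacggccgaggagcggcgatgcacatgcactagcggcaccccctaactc

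The full CRE letters are TGACGTCA, the same on both strands and holding the core. They were in 0 of the 13 windows of the listed genes other than Pthlh, Arrb1 and Arrb2. Of 32851 promoter windows of the same length, 1.55% held them. The core was in 4 of the 13 windows, against 17.8% of all. It stood in the most upstream of the 3 Pth1r windows, starting 161 bases before the start, and in neither of the other Pth1r windows. Gnas held it in 3 of 4 windows, but the windows at chr2:174327499-174327748 and chr2:174327518-174327767 overlap and share a site, so these are 2 places. The Grk6 windows at chr13:55445079-55445328 and chr13:55445081-55445330 overlap as well, so the 13 windows are not all separate promoters. The windows of Gnaq, Gna11, Grk5, Grk6 and Gnao1 did not hold the letters. A match describes the letters in these windows and is no measured binding site.

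Gnas encodes the alpha subunit of Gs, which carries the receptor signal to adenylyl cyclase. A further cluster annotated with Gnas and an antisense gene together was not used. Gnas had log2 levels of 3.95, 3.97 and 3.95 with hPTH(1-34), of 3.94, 3.95 and 4.01 with bPTH(7-34), and of 3.93, 3.95 and 3.81 with vehicle. hPTH(1-34) and vehicle met at 3.95, and only vehicle array 3 lay under 3.93. Gnas differed by 0.06 ± 0.08 between hPTH(1-34) and vehicle (SE, interval -0.12 to 0.24, adjusted p = 0.866), by 0.07 ± 0.08 between bPTH(7-34) and vehicle (-0.11 to 0.25, adjusted p = 0.999) and by -0.01 ± 0.08 between the peptides (-0.19 to 0.17, adjusted p = 0.989). These intervals leave room for at most a 1.19-fold higher or a 1.14-fold lower level of the cluster read (mean 3.94). They do not cover the cluster that was not used. The residual SD of Gnas, 0.049, was at the 2.0 percentile of all clusters, whose median was 0.17. The value 3.95 occurred on 4 of the 9 arrays, and in 43.7% of all clusters at least 3 of the 9 deposited values were equal to 2 decimals.

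Gnaq, the alpha subunit that links the receptor to phospholipase C, was the listed gene furthest from vehicle with hPTH(1-34). It had log2 levels of 6.39, 6.14 and 5.93 with hPTH(1-34), of 6.42, 6.18 and 6.64 with bPTH(7-34), and of 6.79, 6.41 and 6.61 with vehicle. All hPTH(1-34) arrays were under all vehicle arrays, with a gap of 0.02, while bPTH(7-34) overlapped both groups. Such a separation from vehicle was found for 1 of the 8 genes with hPTH(1-34), for 0 of 8 with bPTH(7-34), and for 1 of 8 between the peptides (Pth1r). Among all clusters it was found for 10.7%, 5.29% and 11.1% in these comparisons, so the counts are close to the shares of all clusters and say nothing particular of these genes.

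Gnaq differed by -0.45 ± 0.16 between hPTH(1-34) and vehicle (SE, interval -0.81 to -0.09), a 1.37-fold lower level, with an unadjusted p = 0.0205 and an adjusted p = 0.410. Between bPTH(7-34) and vehicle it differed by -0.19 ± 0.16 (-0.55 to 0.17, adjusted p = 0.999), and between the peptides by -0.26 ± 0.16 (-0.62 to 0.10, adjusted p = 0.700). Leaving out single arrays, the difference between hPTH(1-34) and vehicle ran from -0.57 without hPTH(1-34) array 1 to -0.34 without hPTH(1-34) array 3, with adjusted p from 0.211 to 0.736. The order of the means was hPTH(1-34) (6.15 ± 0.23), bPTH(7-34) (6.41 ± 0.23) and vehicle (6.60 ± 0.19, SD, n = 3 each), and neighbours in that order overlapped.

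Gna11 encodes the close relative of Gnaq that serves the same effector. It had log2 levels of 7.76, 7.67 and 7.69 with hPTH(1-34), of 7.82, 7.33 and 7.66 with bPTH(7-34), and of 7.67, 7.52 and 7.37 with vehicle. The lowest hPTH(1-34) array and the highest vehicle array had the same value, 7.67, and the bPTH(7-34) arrays held both the highest and the lowest value. The difference was 0.19 ± 0.13 between hPTH(1-34) and vehicle (interval -0.12 to 0.49, adjusted p = 0.725), 0.08 ± 0.13 between bPTH(7-34) and vehicle (-0.22 to 0.39, adjusted p = 0.999) and 0.10 ± 0.13 between the peptides (-0.20 to 0.41, adjusted p = 0.881). For hPTH(1-34) the Gna11 estimate was positive where that of Gnaq was negative. The difference between the estimates of these genes was not tested.

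**Figure D2:**
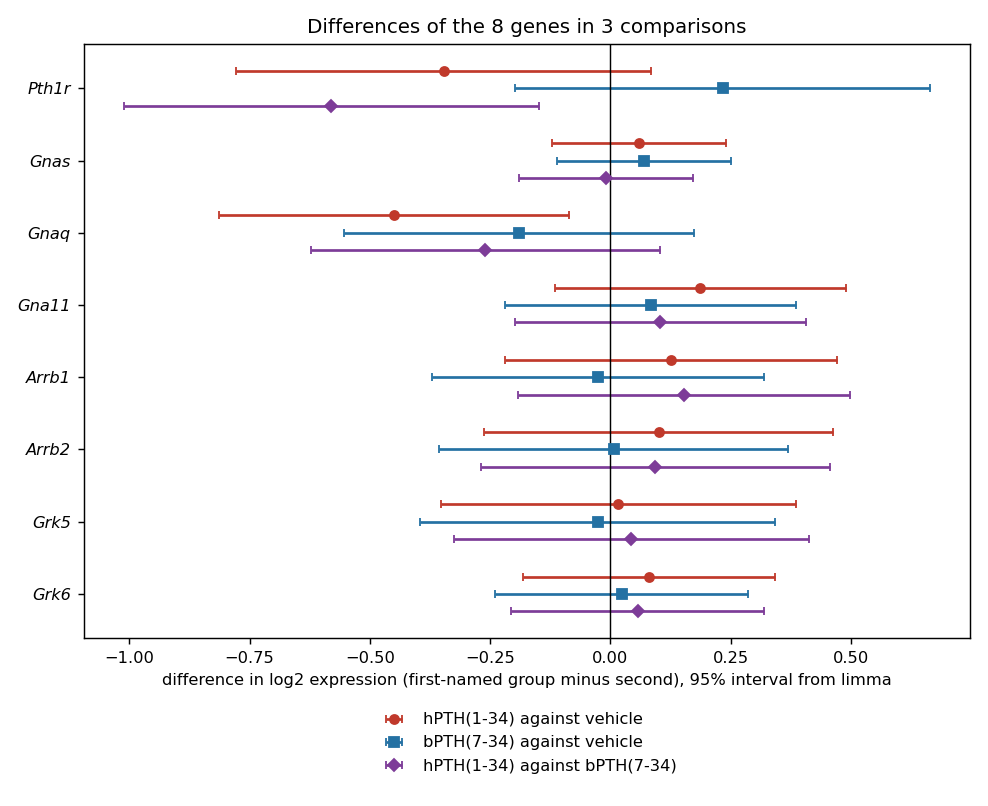
Differences in log2 expression (x axis, first-named group minus second) of the 8 genes (rows) with 95% intervals from limma, for hPTH(1-34) against vehicle, bPTH(7-34) against vehicle and hPTH(1-34) against bPTH(7-34). The intervals of Gnaq for hPTH(1-34) against vehicle (-0.81 to -0.09) and of Pth1r between the peptides (-1.01 to -0.15) leave out 0, and all other intervals hold it.

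The beta-arrestins Arrb1 and Arrb2 bind the phosphorylated receptor, end its coupling to G proteins and act as scaffolds in endosomes. Arrb1 had log2 levels of 4.89, 4.75 and 4.72 with hPTH(1-34), of 4.88, 4.25 and 4.77 with bPTH(7-34), and of 4.72, 4.65 and 4.61 with vehicle. bPTH(7-34) array 2 was the lowest, and all other arrays lay between 4.61 and 4.89, with the groups overlapping. Arrb1 differed by 0.13 ± 0.15 between hPTH(1-34) and vehicle (interval -0.22 to 0.47, adjusted p = 0.849), by -0.03 ± 0.15 between bPTH(7-34) and vehicle (-0.37 to 0.32, adjusted p = 0.999) and by 0.15 ± 0.15 between the peptides (-0.19 to 0.50, adjusted p = 0.831). Without bPTH(7-34) array 2 the difference from vehicle was 0.17 and that between the peptides -0.04, so both changed sign.

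Arrb2 lay nearest to the background limit of the 8, with a mean of 2.73 over the 9 arrays. It had log2 levels of 3.21, 2.69 and 2.49 with hPTH(1-34), of 2.65, 2.69 and 2.77 with bPTH(7-34), and of 2.69, 2.69 and 2.71 with vehicle. The hPTH(1-34) arrays held both the highest and the lowest value, and the other 6 arrays lay between 2.65 and 2.77. The value 2.69 occurred on 4 of the 9 arrays. Arrb2 differed by 0.10 ± 0.16 between hPTH(1-34) and vehicle (interval -0.26 to 0.46, adjusted p = 0.894), by 0.0067 ± 0.16 between bPTH(7-34) and vehicle (-0.36 to 0.37, adjusted p = 0.999) and by 0.09 ± 0.16 between the peptides (-0.27 to 0.46, adjusted p = 0.916). Without hPTH(1-34) array 1 the difference from vehicle was -0.11.

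Grk5 and Grk6 encode receptor kinases of the same subfamily, which sit at the membrane and phosphorylate active receptors. Grk5 had log2 levels of 6.84, 6.53 and 6.46 with hPTH(1-34), of 6.64, 6.58 and 6.48 with bPTH(7-34), and of 6.85, 6.24 and 6.69 with vehicle. The vehicle arrays held the highest and the lowest value and enclosed both peptide groups. Grk5 differed by 0.02 ± 0.16 between hPTH(1-34) and vehicle (interval -0.35 to 0.39, adjusted p = 0.989), by -0.03 ± 0.16 between bPTH(7-34) and vehicle (-0.40 to 0.34, adjusted p = 0.999) and by 0.04 ± 0.16 between the peptides (-0.33 to 0.41, adjusted p = 0.971). The fold bounds against vehicle were 1.31-fold higher and 1.28-fold lower with hPTH(1-34), and 1.27-fold higher and 1.32-fold lower with bPTH(7-34).

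Grk6 had log2 levels of 5.11, 4.95 and 4.72 with hPTH(1-34), of 4.84, 4.77 and 5.00 with bPTH(7-34), and of 4.91, 4.85 and 4.78 with vehicle. The hPTH(1-34) arrays enclosed all others, which lay between 4.77 and 5.00. Grk6 differed by 0.08 ± 0.12 between hPTH(1-34) and vehicle (interval -0.18 to 0.34, adjusted p = 0.878), by 0.02 ± 0.12 between bPTH(7-34) and vehicle (-0.24 to 0.29, adjusted p = 0.999) and by 0.06 ± 0.12 between the peptides (-0.21 to 0.32, adjusted p = 0.937).

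Over the 8 genes, 6 estimates were positive for hPTH(1-34) against vehicle, 5 for bPTH(7-34) against vehicle and 5 between the peptides. The medians were 0.07, 0.015 and 0.05, against 0, 0.0033 and -0.0033 over all clusters. The comparisons with vehicle share its 3 arrays, so their estimates are not independent of each other. The widest 95% interval was that of Pth1r, 0.43 to each side, and the narrowest that of Gnas, 0.18 to each side.

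The genes whose levels ran most like those of Pth1r were sought among 4877 other named genes with a mean log2 level of at least 5, by Pearson correlation over the 9 arrays. They were Tprgl (0.954), Cavin2 (0.939), H6pd (0.919), Ldah (0.911) and Tbck (0.908). The 9 arrays fall into the same 3 groups for every gene, and 11 genes reached 0.9, so these are descriptions only. Cavin2, which encodes a coat protein of caveolae, averaged 4.60 ± 0.75 with hPTH(1-34), 5.62 ± 0.20 with bPTH(7-34) and 5.53 ± 0.31 with vehicle (SD, n = 3 each), and did not pass between hPTH(1-34) and vehicle (-0.94 ± 0.33 SE, adjusted p = 0.392).

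Related genes of the same signalling route were counted in 8 lists, of which 81 genes had a cluster. For hPTH(1-34) against vehicle 1 rose, 0 fell and 80 did not pass, where 0.451% of all clusters were called, and 9 of 81 had an unadjusted p under 0.05, against 9.31% of all clusters. The gene that rose was Gnao1, the alpha subunit of Go, a G protein of the inhibitory family best known from neurons. Gnao1 had log2 levels of 5.78, 5.98 and 5.91 with hPTH(1-34), of 5.25, 5.41 and 5.31 with bPTH(7-34), and of 5.42, 5.14 and 5.13 with vehicle. All 3 hPTH(1-34) arrays stood above the other 6, with bPTH(7-34) and vehicle overlapping. The summed adipocyte markers were 8.91, 7.98 and 8.58 on hPTH(1-34) arrays 1, 2 and 3, and ran from 7.50 to 8.05 with vehicle. Their part in the Gnao1 value was not tested.

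Gnao1 rose 1.58-fold with hPTH(1-34) against vehicle (log2 difference 0.66 ± 0.11 SE, interval 0.42 to 0.90, adjusted p = 0.0449). It differed by 0.09 ± 0.11 between bPTH(7-34) and vehicle (-0.15 to 0.34, adjusted p = 0.999) and by 0.57 ± 0.11 between the peptides (0.32 to 0.81, adjusted p = 0.0719). The Gnao1 call was lost with the array number as a block (adjusted p = 0.0793), over all 41345 clusters (0.127), with the 6 arrays of the comparison alone (0.168), and without any array but hPTH(1-34) array 1 or vehicle array 1, where adjusted p ran from 0.0766 to 0.201. The log2 difference itself stayed between 0.61 and 0.76 without any array.

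The other genes named from these lists did not pass, and their values for hPTH(1-34) against vehicle follow by role. Among 15 G protein beta and gamma subunits, the gamma subunit Gng4 differed by 1.10 ± 0.29 (adjusted p = 0.217), Gnb4 by -0.61 ± 0.21 (0.389, and 0.0165 without hPTH(1-34) array 1) and Gnb3 by 0.18 ± 0.11 (0.679). Among 13 other alpha subunits Gnaz gave 0.31 ± 0.20 (adjusted p = 0.687), Gnai3 0.16 ± 0.14 (0.769) and Gna15 -0.12 ± 0.15 (0.848). Gnaz lay above the background limit in 2 of 9 arrays and Gna15 in 6. Among 6 alpha chaperones and exchange factors Ccdc88a gave -0.25 ± 0.14 (adjusted p = 0.640), Gpsm2 -0.17 ± 0.14 (0.770) and Ric8a 0.13 ± 0.10 (0.758). Among 13 Gq effectors Arhgef25 gave -0.58 ± 0.12 (adjusted p = 0.108, and 0.0485 without hPTH(1-34) array 1), the protein kinase C gene Prkce 0.67 ± 0.17 (0.201) and Kalrn -0.29 ± 0.16 (0.630).

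Among 8 other arrestins, the alpha-arrestins Arrdc3, Arrdc4 and Arrdc1 gave 0.47 ± 0.13 (adjusted p = 0.242), 0.64 ± 0.22 (0.379) and 0.12 ± 0.08 (0.708). Arrdc3 had 7.09, 7.25 and 7.39 with hPTH(1-34), 6.81, 6.68 and 6.94 with bPTH(7-34), and 6.54, 6.94 and 6.83 with vehicle, so its hPTH(1-34) arrays lay above all others. Among 20 scaffold and endocytosis genes Vps26a, a subunit of the retromer that sorts receptors out of endosomes, gave -0.34 ± 0.09 (adjusted p = 0.220), Rab4a 0.38 ± 0.20 (0.630) and the retromer partner Snx27 -0.25 ± 0.15 (0.662). The other receptor kinases Grk4, Grk3 and Grk1 gave 0.15 ± 0.10 (adjusted p = 0.684), 0.07 ± 0.08 (0.848) and -0.11 ± 0.18 (0.903). Grk2 (older symbol Adrbk1) was listed too but had no cluster with its symbol alone. The hormone family genes Pth2, Pth and Pth2r gave -0.41 ± 0.15 (adjusted p = 0.441), -0.04 ± 0.10 (0.929) and 0.04 ± 0.09 (0.935). Grk4, Grk1, Pth and Pth2r were under the background limit in all 9 arrays, and Grk3 was above it in 1.

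For bPTH(7-34) against vehicle 0 of the 81 passed by limma, as did 0% of all clusters, and 1 had an unadjusted p under 0.05, against 3.32% of all clusters. It was the cone arrestin gene Arr3 (0.33 ± 0.13, adjusted p = 0.999), which lay above the background limit in 1 of 9 arrays. The smallest p of the other lists belonged to Gnaz (0.42 ± 0.20), Rab4a (0.43 ± 0.20), Plcb2 (0.22 ± 0.11), Grk4 (0.19 ± 0.10), Gng10 (0.12 ± 0.09), Ric8a (0.13 ± 0.10) and Pth (-0.09 ± 0.10), each with an adjusted p of 0.999. Of these, Gnaz and Plcb2 each lay above the background limit in only 2 of 9 arrays, and Grk4 and Pth in 0. Between the peptides 0 of the 81 passed by limma, against 0.463% of all clusters, and 13 had an unadjusted p under 0.05, against 9.52% of all clusters.

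**Figure D3:**
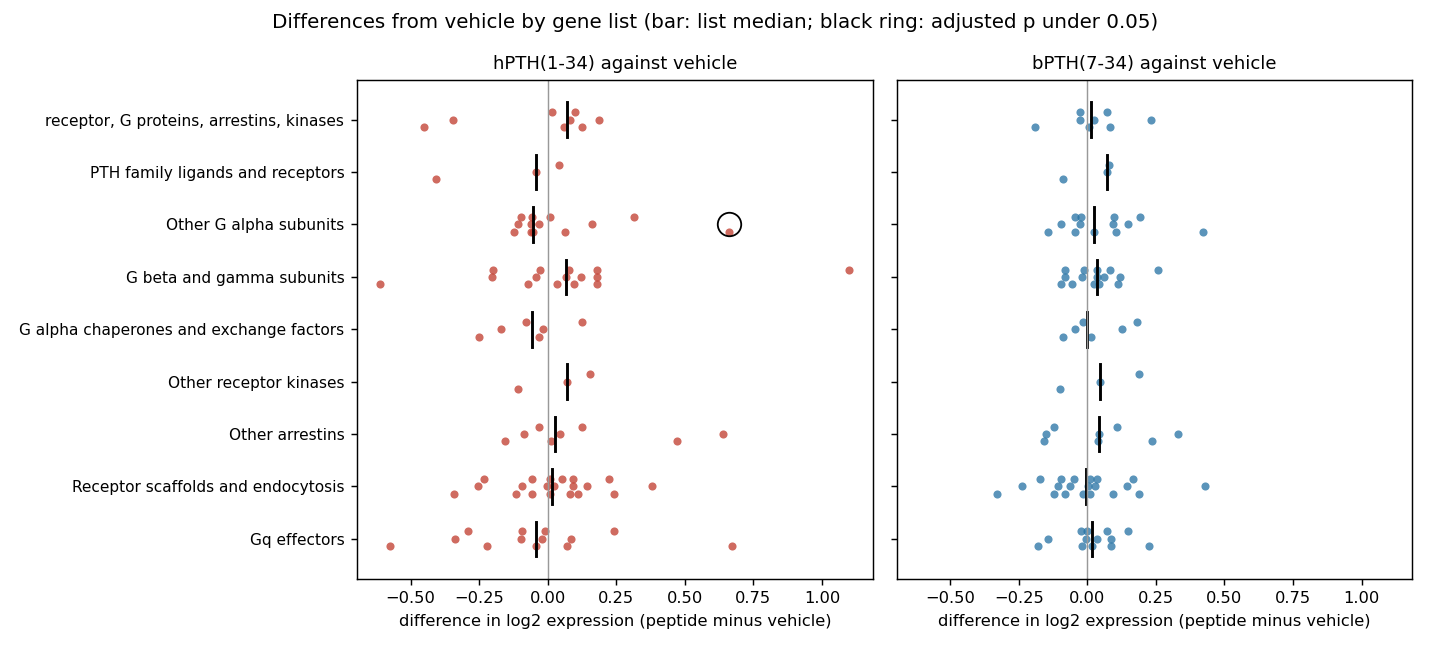
Differences in log2 expression from vehicle (x axis) for the 8 listed genes and for the 8 related lists (rows), for hPTH(1-34) on the left and bPTH(7-34) on the right. Each point is a gene, black bars are list medians and the black ring marks adjusted p under 0.05, which Gnao1 alone (0.66) reached, for hPTH(1-34).

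**Figure D4:**
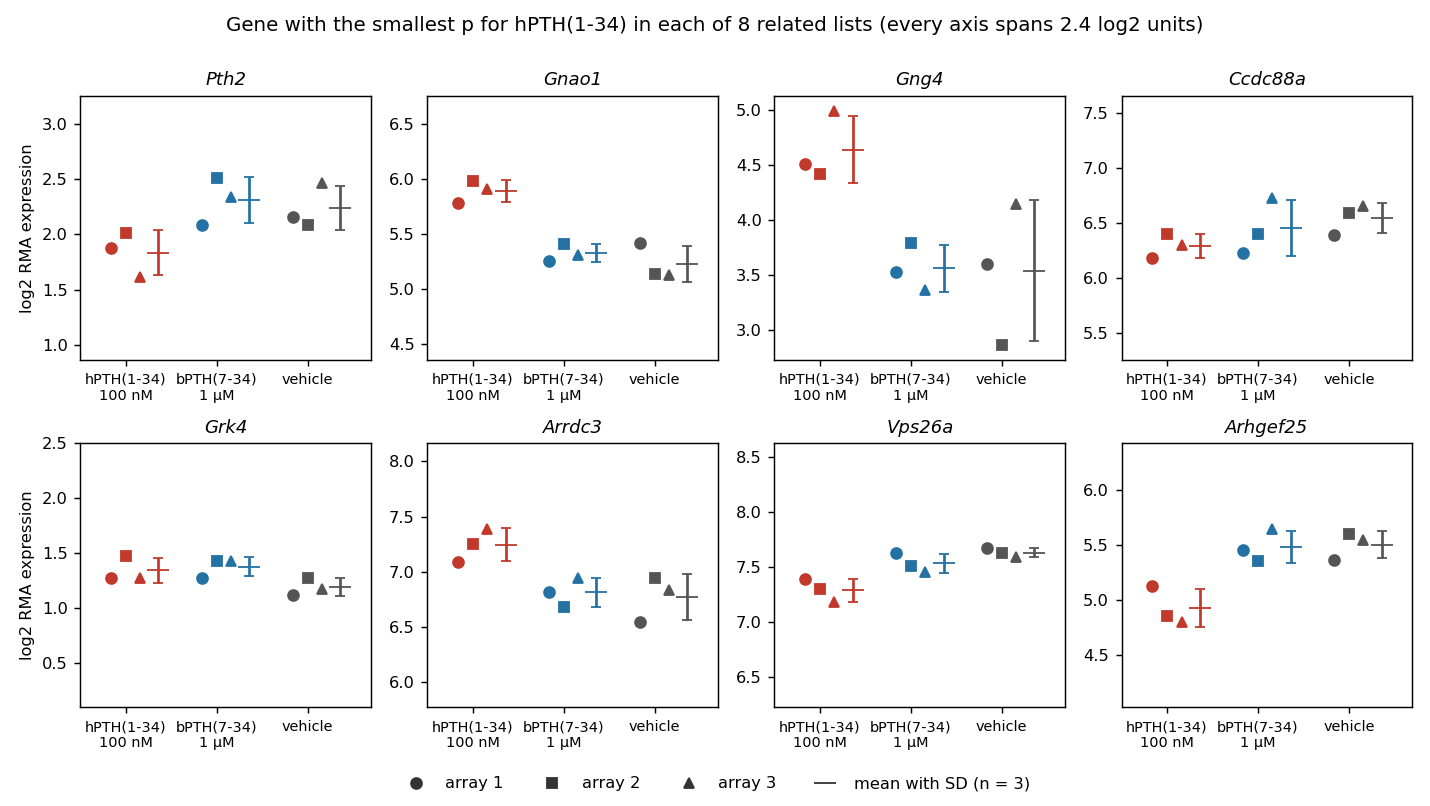
Log2 RMA expression (y axis, each panel spanning 2.4 log2 units) on each array, by group on the x axis, for the gene of each related list whose p between hPTH(1-34) and vehicle was lowest. Points are arrays and bars are the mean and SD of 3 arrays. The 3 hPTH(1-34) points of Gnao1 (5.78 to 5.98) lie above all others, while those of Ccdc88a (6.18 to 6.40) overlap vehicle (6.39 to 6.65).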

How the data were processed

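RNA of 9 osteoblast samples (100 ng each) was measured on Affymetrix Mouse Gene 2.0 ST arrays, per the labels. The deposited log2 values, 1 for each transcript cluster, came from RMA in Expression Console, per the submitters' processing notes. Versions and genome build are not given in the sources used here. RMA normalises arrays together, so a shift of most genes would not show. Values have 2 decimals. Arrays carry no read depth, and their number limits the precision.

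Of 41345 clusters 23521 had exactly 1 gene symbol in the platform annotation, 1814 had several and 16010 none. limma 3.58.1 in R 4.3.3 (lmFit, eBayes, two-sided, group as the only term, 6 residual and 3.20 prior degrees of freedom) was fitted to the 23521 on all 9 arrays. P-values were adjusted over all 23521 within a comparison. The fit was checked on simulated arrays, with independent noise and planted differences larger than any of the listed genes. That check does not cover differences of their size or an effect of the array number. The p-values set a group difference against the spread between these samples, including any spread that follows the array number. The listed genes, related lists and tests were chosen with earlier results of these data known. From each related list every gene past 0.05 was named, with the 3 smallest p for hPTH(1-34) and the smallest for bPTH(7-34) among the others. Promoter sequences are from RefSeq (GRCm38.p6). Alternatives were a block for array number, quantile normalisation, a minimum mean log2 of 5, all clusters, a trended robust prior, gene means, the 6 arrays of a comparison, and each array left out. Plots used matplotlib 3.10.9 in Python 3.11.15.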

Additional observations from a re-analysis of the deposited data

How the results depend on the processing

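No listed gene passed in any of the 3 comparisons, or in the F-test, under any alternative. Their 24 differences gave 369 values under alternatives, 348 with the same direction and 21 with the opposite one, and the smallest adjusted p was 0.0706 (Pth1r between the peptides, without hPTH(1-34) array 1). Only 3 of the 8 genes (Gnaq, Gna11, Grk5) have a mean of at least 5. Quantile normalisation turned Arrb2 for bPTH(7-34) to -0.0093 and Grk5 for hPTH(1-34) to -0.016. Without one array each, the ranges that crossed 0 were, for hPTH(1-34) against vehicle, Arrb2 -0.11 to 0.25, Grk5 -0.16 to 0.14, Grk6 -0.012 to 0.18, Gna15 -0.24 to 0.015, Grk1 -0.34 to 0.013 and Pth -0.12 to 0.025, while Pth2r ran from 0 to 0.06. For bPTH(7-34) against vehicle they were Arrb1 -0.15 to 0.17, Arrb2 -0.027 to 0.033, Gna11 -0.025 to 0.22, Grk5 -0.20 to 0.10 and Grk6 -0.042 to 0.073. Between the peptides they were Arrb1 -0.038 to 0.28, Arrb2 -0.11 to 0.25, Gna11 -0.033 to 0.21, Gnas -0.023 to 0.012, Grk5 -0.072 to 0.12 and Grk6 -0.035 to 0.16.

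The number of all clusters called was less stable. Between hPTH(1-34) and vehicle it was 106 in the fit reported, 182 at a mean of at least 5, 16 over all clusters, 0 with the 6 arrays alone (1936 at an unadjusted p under 0.05), and 0 to 259 without one array. Between the peptides it was 109, and 211, 3, 0 (2066 at an unadjusted p under 0.05) and 2 to 262 under the same alternatives. For bPTH(7-34) against vehicle it was 0 throughout (780 at an unadjusted p under 0.05 in the fit reported). The cause of these moves was not tested. Arhgef25 passed for hPTH(1-34) at a mean of at least 5 (adjusted p = 0.0344), as did Gnao1 between the peptides (0.0197). Without hPTH(1-34) array 1, Gnb4 (log2 difference -0.89, adjusted p = 0.0165) and Arhgef25 (-0.68, adjusted p = 0.0485) passed for hPTH(1-34) against vehicle. Arrays of one number deviated together in part. Such pairs correlated from 0.065 to 0.364, 6 of 9 above 0.1, against -0.294 to 0.138 for pairs of unlike number from different groups. Of the 9 arrays, 8 correlated best with one of their own number, a hint from the data and not from the labels. The numbers were therefore not taken as pairs. With the number as a replicate block the calls were 112 for hPTH(1-34) against vehicle, 0 for bPTH(7-34) and 116 between the peptides, and 0 of the 8 genes.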
